A study of Homo sapiens with 6 samples.

Results

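The apelin receptor gene APLNR and 9 other genes of the early path to endothelium and blood were followed in H1 human embryonic stem cells at day 2 of hematopoietic differentiation. The 10 genes, APLNR, APELA, KDR, ETV2, TAL1, LMO2, GATA2, PECAM1, TEK and FLT1, were taken by symbol from a fixed selection, out of 37803 symbols listed once in both deposited tables. Values are FPKM (named in the second table and inferred for the first), that is fragments per transcript after allowing for transcript length and library size. Of the 10 genes, 6 had a mean of at least 1 FPKM over the 6 libraries and were tested, and ETV2, LMO2, TAL1 and PECAM1 fell below that limit. The cells were wild type (WT, n = 2) or had SNAI1 deleted (libraries with the title number 1, SNAI1_KO_1, and with the title number 2, SNAI1_KO_2, n = 2 each). All 3 groups shared the H1 background and the treatment. According to the labels this was 2 days in Custom mTeSR1 medium with activin A (40 ng/ml) plus BMP4 (50 ng/ml). The methods of the study give the same doses for the opposite factors. The study describes a pair of frameshift knockout lines for SNAI1 made with CRISPR/Cas9, and the labels do not tie the title numbers to those lines or say whether libraries came from separate cultures, so the spread between libraries may be technical.

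Apelin receptor is a G protein-coupled receptor that appears on mesoderm cells as they leave the primitive streak, and its peptide ligands are apelin (APLN) and ELABELA (APELA), the latter also made by undifferentiated human embryonic stem cells. Mesoderm that goes on to form vessels and blood then carries the VEGF receptor KDR, and the ETS factor ETV2 switches on the vascular and blood programme, with TAL1, LMO2 and GATA2 acting in a shared DNA-bound complex. FLT1 binds VEGF without signalling as strongly as KDR, TEK is the receptor for angiopoietins on endothelial cells, and PECAM1 (the surface protein CD31) is an adhesion molecule of endothelial junctions.

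The level of each gene in WT was examined first, since FPKM is scaled by length and can be compared between genes. APLNR was at 621.2 (first table) and 572.7 FPKM (second table) in WT, and only 1.06% and 1.08% of the symbols with at least 1 FPKM lay above it. KDR came next, at 62.9 and 53.8 FPKM, which was 10.2-fold below APLNR on the means. GATA2 (10.3 and 14.7 FPKM) and FLT1 (10.4 and 7.40) followed, and their ranges overlapped, as did those of TEK (2.41 and 1.85), ETV2 (1.495 and 2.23) and APELA (1.53 and 1.24), each with its neighbour. LMO2 was at 0.2996 and 0.271 FPKM, apart from APELA above it and PECAM1 below it. PECAM1 (0.0128 and 0.166 FPKM) and TAL1 (0.00963 and 0.0245) were lowest, and their ranges overlapped.

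**Figure D1:**
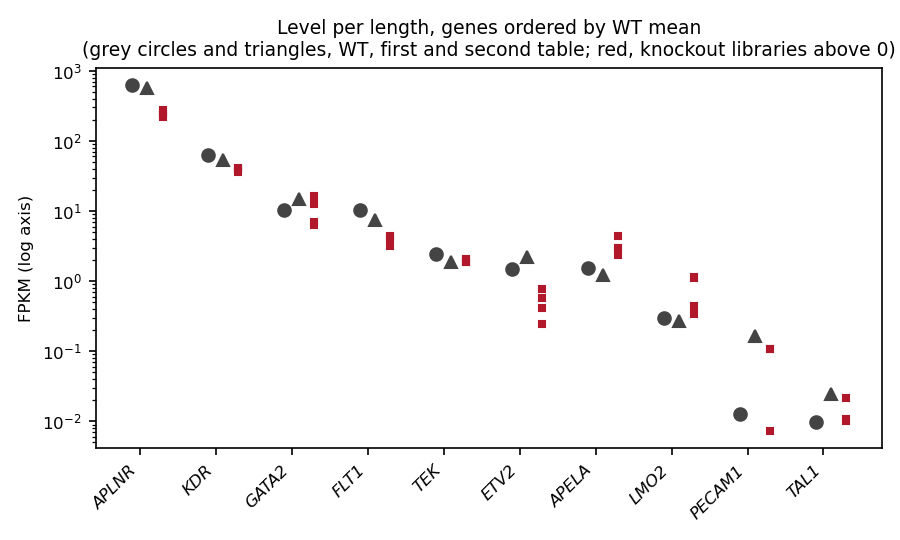
FPKM of the 10 genes on a log axis, ordered by the WT mean, with the WT libraries in grey (circles for the first table, triangles for the second table) and the knockout libraries in red (values of 0 are left out). APLNR lies at 572.7 and 621.2 FPKM in WT, and TAL1 lies below 0.03 FPKM in every library.

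Endothelial and blood markers were read beside these levels, because the name of the selection implies hematoendothelial progenitors. Of 28 endothelial surface and junction genes, 18 stayed below 1 FPKM in every library, and EMCN and LYVE1 were listed at 0 in all 6. CDH5, the cadherin of endothelial junctions, ran from 0.0896 to 0.262 FPKM. Of 19 blood cell markers, 14 stayed below 1 FPKM in every library, and PTPRC, the pan-leukocyte antigen CD45, was listed at 0 throughout. EMCN, LYVE1, CDH5 and PTPRC, and APLN below, fell outside the rule for named genes and were chosen after their values were seen. Other genes of these lists were present in WT, with EGFL7 at 19.3 and 21.4 FPKM, ANGPT2 at 5.98 and 4.89, NOS3 at 3.93 and 3.62, KLF1 at 3.49 and 3.89, and CD34 at 1.152 and 1.111. The markers were thus mixed, with PECAM1, CDH5 and PTPRC at or near 0, and the genes are described by name rather than as a cell type.

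To show the sequence next to these genes, the 250 bases before the annotated start were taken from RefSeq (GRCh38.p14), where 7 of the 10 genes had an entry, with 10 windows. These windows belong to another build than the hg19 of the files. Both strands were searched for CAGGTG, the E-box that SNAI1 protein binds, for AGATAA, a word bound by GATA factors, and for AGGAAG and CCGGAA, words bound by ETS factors such as ETV2. Of all 35116 windows of this length, 17.5% held CAGGTG, 9.17% AGATAA, 28.7% AGGAAG and 14.5% CCGGAA. The 4 windows printed here belong to the genes that were lower (KDR, FLT1, ETV2) or higher (APELA) in the knockout libraries, with every match of any of these words in capitals. They lie at chr4:55125596-55125845 on the minus strand, chr13:28495129-28495378 on the minus strand, chr19:35641495-35641744 on the plus strand and chr4:164876928-164877177 on the plus strand.
KDR: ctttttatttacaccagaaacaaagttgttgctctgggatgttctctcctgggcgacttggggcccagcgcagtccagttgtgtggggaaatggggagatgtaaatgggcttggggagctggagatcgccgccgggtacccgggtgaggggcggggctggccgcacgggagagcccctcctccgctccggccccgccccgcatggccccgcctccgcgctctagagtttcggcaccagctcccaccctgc
FLT1: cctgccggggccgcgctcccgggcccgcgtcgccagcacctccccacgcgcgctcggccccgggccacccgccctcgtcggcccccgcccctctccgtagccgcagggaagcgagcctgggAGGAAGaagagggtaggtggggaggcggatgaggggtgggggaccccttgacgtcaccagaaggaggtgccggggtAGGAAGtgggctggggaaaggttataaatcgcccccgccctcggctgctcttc
ETV2: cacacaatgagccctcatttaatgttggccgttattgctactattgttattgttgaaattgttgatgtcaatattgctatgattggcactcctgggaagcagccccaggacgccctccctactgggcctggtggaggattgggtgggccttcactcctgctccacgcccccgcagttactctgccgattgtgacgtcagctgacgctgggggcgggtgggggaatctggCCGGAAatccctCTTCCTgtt
APELA: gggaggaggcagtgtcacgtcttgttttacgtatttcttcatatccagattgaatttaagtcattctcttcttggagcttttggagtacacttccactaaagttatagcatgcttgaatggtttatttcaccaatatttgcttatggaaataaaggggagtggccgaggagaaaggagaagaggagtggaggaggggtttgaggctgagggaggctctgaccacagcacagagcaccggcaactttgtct
FLT1 had AGGAAG with its first base 129 and 53 bases before the start. ETV2 had CCGGAA 21 bases before the start. It also had AGGAAG on the opposite strand, 9 bases before the start. None of the 4 words was found in the KDR and APELA windows, and CAGGTG was found in none of these 4 windows. Among the other windows, CAGGTG occurred once, 247 bases before the second start of GATA2. Such matches describe these letters only. Windows of APLNR, LMO2 and PECAM1 were not analysed here.

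SNAI1 itself was at 37.1 and 36.4 FPKM in the WT libraries and between 47.8 and 68.6 in the 4 knockout libraries. A frameshift can leave the transcript in place, so this level does not check the labels, and all directions are those of the libraries as labelled. FPKM summed to between 603399 and 633851 per library. Read totals are not part of the tables, and the depth relative to WT of the same table, from the commonest ratio of low values, was 0.97 (SNAI1_KO_1) and 0.87 (SNAI1_KO_2) for the first table, against 1.09 and 1.11 for the second. Since each table was normalized on its own, differences and percentages of WT were taken within a table. Statements that all 4 knockout libraries lay below or above both WT libraries also compare across the tables. In bulk RNA, fewer cells that express a gene and less RNA per cell cannot be told apart.

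To ask how the apelin axis differs after SNAI1 deletion, the receptor and its ligand were compared with WT. APLNR was at 621.2 FPKM in the first-table WT library, against 249.1 in SNAI1_KO_1 and 280.2 in SNAI1_KO_2. The second table held 572.7 (WT), 243.1 (SNAI1_KO_1) and 217.4 (SNAI1_KO_2). All 4 knockout libraries lay below both WT libraries, at 38.0% to 45.1% of WT in the same table. The difference on log2(FPKM + 1), the scale of every difference given here, was -1.27 ± 0.073 (SE, limma adjusted p 0.000421) for both knockout groups against WT. It was -1.27 in each knockout group, and the groups differed from each other by 0.0045, with a 95% interval from -0.21 to 0.22.

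APELA, the ELABELA ligand, moved the other way. It was at 1.53 FPKM in the first-table WT library, against 2.94 in SNAI1_KO_1 and 2.97 in SNAI1_KO_2. In the second table the values were 1.24 (WT), 2.38 (SNAI1_KO_1) and 4.43 (SNAI1_KO_2). All 4 knockout libraries lay above both WT libraries, at 192% to 358% of WT in the same table. The log2 difference was 0.79 ± 0.18 (SE, limma adjusted p 0.0271). Taken alone, SNAI1_KO_2 passed (0.97, adjusted p 0.0266) and SNAI1_KO_1 did not (0.62, adjusted p 0.0931), and the difference between them, 0.35, had a 95% interval from -0.18 to 0.88. The call rests on few libraries. It was lost without the WT library of either table (adjusted p 0.1004 for the first, 0.189 for the second), without the SNAI1_KO_1 library of the first (0.0895) or of the second (0.0539), without the SNAI1_KO_2 library of the second (0.0533), and without the term for the table (0.0810), always with the ligand higher in the knockout. Without the filter on low values the adjusted p was 0.132.

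Markers of other states were read in the same comparison, in which 31.3% of all 13909 genes tested were called, 15.4% lower and 15.8% higher. Of 16 epithelial markers, 16 were higher, and their summed FPKM was between 1022 and 1143 in WT and between 3119 and 3458 in the knockout libraries. KRT8 was the largest term of this sum, at 397.6 and 440.5 FPKM in WT and between 1191 and 1355 in the knockout libraries. KRT18 came next, at 197.9 and 208.0 FPKM in WT and between 609.9 and 777.2 in the knockout libraries. Of 12 pluripotency markers, 10 were tested, 3 were higher, 0 lower and 7 not called, with none of the 12 at 0 throughout. Their sum was between 1129 and 1152 in WT and between 1369 and 1546 in the knockout libraries. POU5F1 was the largest term of this sum, at 484.8 and 629.9 FPKM in WT and between 676.6 and 1014 in the knockout libraries. TDGF1 and KLF4, which were not called, lay below WT of the same table in all 4 knockout libraries. Of 19 mesoderm markers, 11 were lower and 6 higher, and their sum was between 1589.6 and 1838 in WT and between 1211 and 1475 in the knockout libraries. Of 11 endoderm markers, 9 were tested, 4 were lower and 2 higher, with 1 of the 11 at 0 throughout. Their sum was between 3150.4 and 3521 in WT and between 1442 and 2057 in the knockout libraries. CER1 made up most of this sum, at 3262 and 2550 FPKM in WT and between 977 and 1797 in the knockout libraries. The endoderm sum therefore describes CER1 more than the class. Of 10 neuroectoderm markers, 3 were tested and 1 was higher. The count of pluripotency markers called lies near the share of all genes called in either direction. All 3 were higher, however, and the share of all genes called higher was 15.8%. Too few neuroectoderm markers were tested to set their count beside these shares. Without the term for the table the counts were 16 epithelial and 1 pluripotency marker higher, 7 mesoderm markers lower and 3 higher, 1 endoderm marker lower, and 0 neuroectoderm markers in either direction. The part of these markers in the values of the 10 genes was not tested. CLDN3, MSGN1 and FOXA1, called higher, passed the limit of 1 FPKM only through the knockout libraries (WT means 0.439, 0.536 and 0.661). HAND2, called lower, passed it only through the WT libraries (knockout means 0.498 and 0.543).

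The list of other apelin signalling genes was short. APLN, the classical ligand, was listed at 0 and 0.0255 FPKM in WT and lay between 0.126 and 0.163 in the knockout libraries, too low to be tested. Of 6 tested genes besides APLNR and APELA, ARRB1, the receptor-desensitizing β-arrestin, was higher (log2 difference 0.68, adjusted p 0.00171 by limma) and GNAI1, an inhibitory G protein subunit, was lower (-0.50, adjusted p 0.0143), while 4 did not pass. Over all genes tested, 31.3% were called. Without the term for the table neither ARRB1 nor GNAI1 passed, with adjusted p of 0.155 and 0.178 by limma. The call of GNAI1 was also lost without the second-table WT library (adjusted p 0.0905) or the SNAI1_KO_2 library of the first (0.0543) or the second (0.0613), and without the filter (0.0897).

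The receptors of vascular mesoderm were then examined. KDR, the main VEGF receptor, was at 62.9 FPKM in the first-table WT library, against 36.2 in SNAI1_KO_1 and 40.6 in SNAI1_KO_2. Second-table values were 53.8 (WT), 39.5 (SNAI1_KO_1) and 40.3 (SNAI1_KO_2). All 4 knockout libraries lay below both WT libraries, at 57.6% to 74.9% of WT. The log2 difference was -0.56 ± 0.082 (SE, limma adjusted p 0.00683). It did not pass without the first-table WT library (-0.42, adjusted p 0.0540), without the term for the table (adjusted p 0.0651) or without the filter (0.0573). The gene annotated on the opposite strand of KDR was listed at 0 in every library.

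FLT1, the VEGF receptor that mostly holds ligand back, was at 10.4 FPKM in the first-table WT library, against 3.93 in SNAI1_KO_1 and 4.40 in SNAI1_KO_2. The second-table libraries held 7.40 (WT), 3.17 (SNAI1_KO_1) and 4.204 (SNAI1_KO_2). The groups did not overlap, and the knockout libraries were at 37.9% to 56.8% of WT. The log2 difference was -0.995 ± 0.12 (SE, limma adjusted p 0.00341), and the call held under every alternative that tested FLT1, with adjusted p between 0.00216 and 0.0456. TEK, the angiopoietin receptor, was at 2.41 FPKM in the first-table WT library, against 2.05 in SNAI1_KO_1 and 1.87 in SNAI1_KO_2. The second table held 1.85 (WT), 1.88 (SNAI1_KO_1) and 1.92 (SNAI1_KO_2). The knockout libraries were lower in the first table and level with WT in the second. The log2 difference was -0.089 with a 95% interval from -0.43 to 0.25 and an adjusted p of 0.650.

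**Figure D2:**
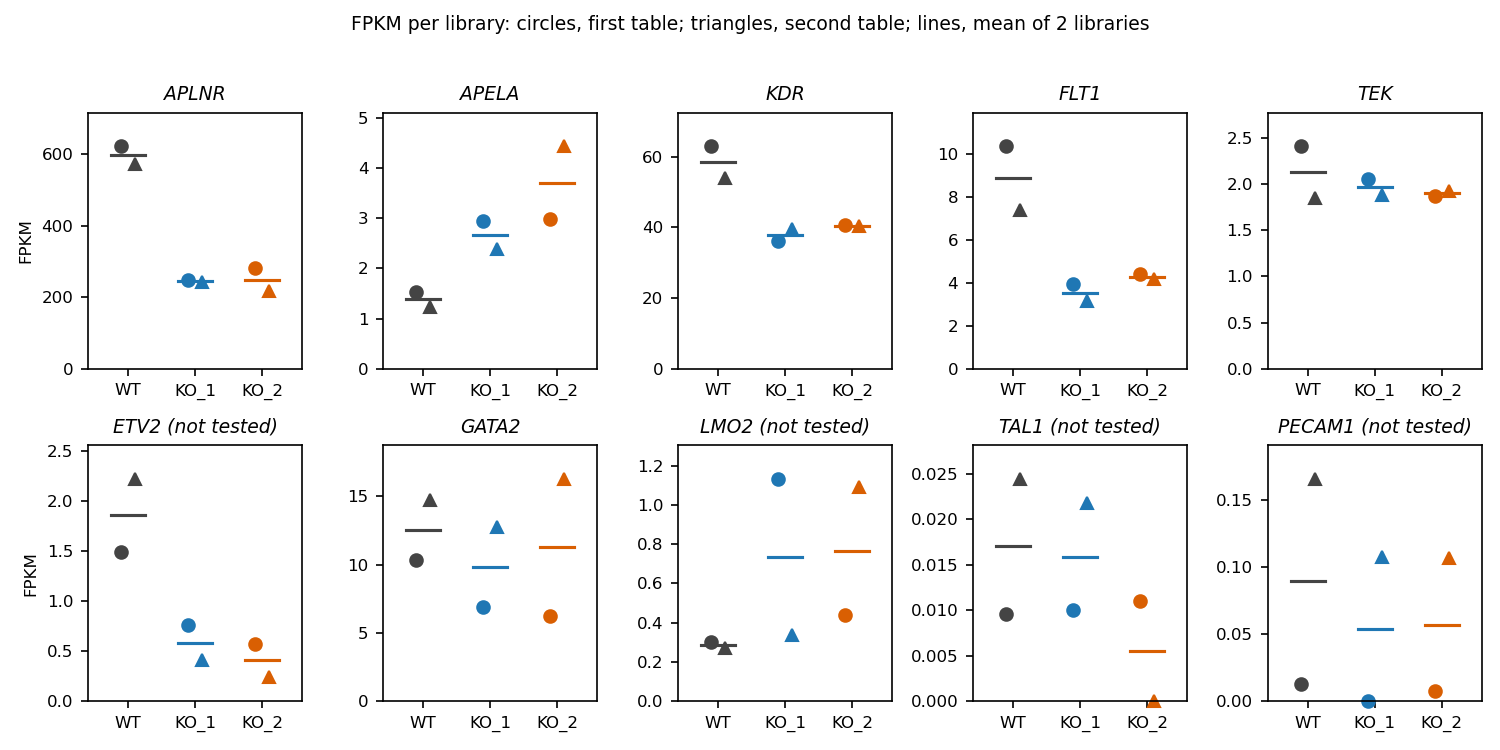
FPKM (vertical axis, from 0) of the 10 genes in each library, by group, with circles for the first table, triangles for the second and lines for the mean of the 2 libraries of a group. APLNR, KDR, FLT1 and ETV2 lie lower and APELA and LMO2 higher in all 4 knockout libraries than in both WT libraries.

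Among the transcription factors, ETV2 was at 1.495 FPKM in the first-table WT library, against 0.760 in SNAI1_KO_1 and 0.576 in SNAI1_KO_2. In the second table the values were 2.23 (WT), 0.409 (SNAI1_KO_1) and 0.243 (SNAI1_KO_2). All 4 knockout libraries lay below both WT libraries, at 38.5% and 50.8% of WT in the first table and at 10.9% and 18.4% in the second. Its mean over the 6 libraries was 0.951 FPKM, so it missed the limit of 1 and was not tested as set out. With a limit of 0.1 FPKM the log2 difference was -0.93 ± 0.19 (SE, limma adjusted p 0.0302), where 19.2% of 21302 genes were called, 9.09% lower and 10.1% higher. With no limit the adjusted p was 0.107. SNAI1_KO_2 alone passed at the limit of 0.1 (adjusted p 0.0410) and SNAI1_KO_1 did not (0.0701), and the groups were not shown to differ (difference -0.17, adjusted p 1).

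GATA2 was at 10.3 FPKM in the first-table WT library, against 6.88 in SNAI1_KO_1 and 6.25 in SNAI1_KO_2. Second-table values were 14.7 (WT), 12.7 (SNAI1_KO_1) and 16.3 (SNAI1_KO_2). The knockout libraries were lower than WT in 3 of 4 cases, and the groups overlapped. The log2 difference was -0.31 with a 95% interval from -0.72 to 0.11 and an adjusted p of 0.214. An antisense gene, GATA2-AS1, lies across GATA2 and reached 7.01 FPKM, and whether the counting used strand is not stated, so the values of GATA2 are uncertain.

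LMO2, the adaptor that joins TAL1 and GATA factors, was at 0.2996 FPKM in the first-table WT library, against 1.13 in SNAI1_KO_1 and 0.440 in SNAI1_KO_2. The second-table libraries held 0.271 (WT), 0.338 (SNAI1_KO_1) and 1.09 (SNAI1_KO_2). All 4 knockout libraries lay above WT, but the high library was SNAI1_KO_1 in the first table and SNAI1_KO_2 in the second. With a limit of 0.1 FPKM the log2 difference was 0.41 ± 0.26 (SE) with an adjusted p of 0.327. TAL1, the basic helix-loop-helix factor of the blood programme, lay between 0 and 0.0245 FPKM. In the first table its WT value stood to the knockout values as 0.964 and 0.878. These lie close to the relative depths of 0.97 and 0.87, the ratios that equal numbers of fragments would give. TAL1 was itself among the low values from which those depths were taken. In the second table the ratio was 1.12 for SNAI1_KO_1, beside a depth of 1.09, and TAL1 was at 0 in SNAI1_KO_2. PECAM1 was at 0.0128 FPKM in WT and at 0 and 0.0073 in the knockout libraries of the first table, and at 0.166, 0.107 and 0.106 in the second. At these levels no difference of TAL1 or PECAM1 was detectable, with adjusted p of 0.815 and 0.440 when no limit was set.

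Of the 6 genes tested, 3 were called lower (APLNR, KDR, FLT1) and 1 higher (APELA) for both knockout groups against WT, where 31.3% of all 13909 genes tested were called, 15.4% lower and 15.8% higher. For SNAI1_KO_1 alone 3 were lower and 0 higher (background 23.9%, as 10.9% lower and 13.0% higher), and for SNAI1_KO_2 alone 3 were lower and 1 higher (25.5%, as 12.0% and 13.5%). Without the term for the table, 2 were lower and 0 higher, beside 7.66% of all genes, 2.15% lower and 5.51% higher. Without the filter 2 were lower and 0 higher, beside 7.07% of 30248 genes, 3.08% lower and 3.99% higher. Between the knockout groups 0 of the 6 genes and 0 of 13909 were called by limma, with 521 at an unadjusted p under 0.05. Among the 6 genes tested, 3 lay lower and 1 higher in all 4 knockout libraries than in both WT libraries. This order was found in 17.1% (lower) and 16.9% (higher) of all genes tested. ETV2 lay lower and LMO2 higher in the same way, but neither was tested, and these shares do not cover genes at their level.

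**Figure D3:**
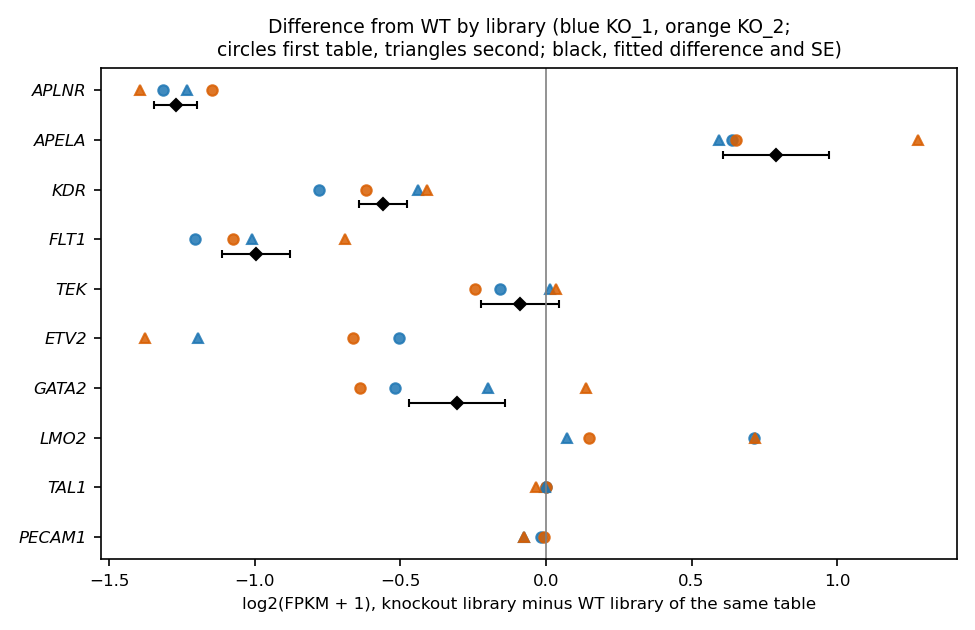
Difference in log2(FPKM + 1) between each knockout library and the WT library of the same table (horizontal axis) for the 10 genes, with the fitted difference of both knockout groups and its SE in black where the gene was tested. The 4 differences of APLNR lie between -1.39 and -1.15, and those of GATA2 and TEK lie on both sides of 0.

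The ligands and partners of these receptors were described from a list of VEGF and angiopoietin genes. Of 16 genes found, 11 were tested, and 7 were lower, 1 was higher and 3 did not pass, TEK among them. The median log2 difference was -0.58, beside -0.050 over all genes tested, of which 15.4% were called lower and 15.8% higher. Apart from KDR, FLT1 and TEK, 5 of 8 tested genes were lower and 1 was higher. PGF, a ligand of FLT1, was at 12.23 and 11.97 FPKM in WT and between 3.38 and 4.71 in the knockout libraries (log2 difference -1.43, adjusted p 0.00116 by limma). ANGPT2, the context-dependent ligand of TEK, was at 5.98 and 4.89 FPKM in WT and between 0.603 and 1.84 in the knockout libraries (-1.48, adjusted p 0.00300). NRP2, a coreceptor for VEGF family ligands, had a difference of -0.85 with an adjusted p of 0.000863. These 3 also passed without the term for the table, with adjusted p of 0.0101, 0.0350 and 0.0202.

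VEGFA, the principal ligand of KDR, was the gene of this list that was higher. It was at 10.9 FPKM in the first-table WT library, against 17.9 in SNAI1_KO_1 and 18.7 in SNAI1_KO_2. The second table held 17.5 (WT), 34.2 (SNAI1_KO_1) and 40.7 (SNAI1_KO_2). Within each table both knockout libraries were above WT, although the first-table knockout values lie close to the second-table WT value. The log2 difference was 0.87 with an adjusted p of 0.00362 by limma, and 0.325 without the term for the table. NRP1, the other neuropilin, and VEGFB, which binds FLT1, were lower, by log2 differences of -0.58 (adjusted p 0.00728) and -0.62 (adjusted p 0.0118). NRP1 did not pass without the first-table WT library (adjusted p 0.0751) or without the table term (0.337). VEGFB did not pass without the WT library of either table (0.104 for the first, 0.0938 for the second), without the table term (0.0707) or without the filter (0.0779). Without that term the list had 4 genes lower and 0 higher.

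The wider list held hemangioblast and blood transcription factors. Of 29 genes found, 19 were tested. Their median log2 difference was -0.24, or -0.14 over the 18 besides GATA2, with -0.050 over all genes tested. Of the 19, 6 were lower and 2 higher (15.4% and 15.8% over all genes tested), and 11 did not pass. Under median-ratio scaling 5 were lower and 3 higher, and a fit without the term for the table left 1 lower and 0 higher. The gene left in that fit was KLF1, the erythroid Krüppel-like factor, at 3.49 and 3.89 FPKM in WT and between 0.203 and 0.581 in the knockout libraries (log2 difference -1.82, adjusted p 0.00205 by limma, 0.00779 without the table term). KLF1 passed the limit of 1 FPKM only through its WT values, and with no limit the adjusted p was 0.0315. LDB1, which bridges the TAL1 and LMO2 complex, was lower (log2 difference -0.60, adjusted p 0.00190, and 0.618 without the table term), with WT at 52.1 FPKM in the first table and 106.1 in the second. LYL1, the close relative of TAL1, was lower (log2 difference -0.90, adjusted p 0.00861), but not without the WT library of either table (0.0641 for the first, 0.0888 for the second), without the table term (0.102) or without the filter (0.0642).

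The ETS factors ETS1 and ELK3 were lower, with log2 differences of -0.55 and -0.53 (adjusted p 0.00642 and 0.00878 by limma). ETS1 did not pass without the second-table WT library (0.0619) or without the filter (0.0511), nor ELK3 without that of the first (0.0856) or of the second (0.0527), and neither passed without the table term (0.194 and 0.0984). The remaining calls of the list, ETS2 (lower), NFE2 and SOX17 (higher), had adjusted p between 0.0319 and 0.0493. They were lost on leaving out any of 6, 5 and 4 of the 6 libraries, with adjusted p reaching 0.257, 0.240 and 0.108, and without the filter at 0.128, 0.181 and 0.164. NFE2, at 0.837 and 0.987 FPKM in WT, passed the limit of 1 FPKM only through the knockout libraries. SOX17, which also marks endoderm, was at 63.9 and 251.0 FPKM in WT, a gap between the tables that exceeded the difference from the knockout libraries in either.

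Of the 28 endothelial surface and junction genes, 8 had enough signal to be tested. Of these, 4 were lower and 1 higher (15.4% and 15.8% over all genes tested), and 3 did not pass. ACVRL1, the endothelial BMP receptor ALK1, was at 2.69 and 2.23 FPKM in WT and between 0.161 and 0.380 in the knockout libraries (log2 difference -1.44, adjusted p 0.00336 by limma). Its mean of 1.001 FPKM passed the limit of 1 only through the WT libraries, and it was not tested under median-ratio scaling. With no limit the adjusted p was 0.0294. NOS3, endothelial nitric oxide synthase, was lower (log2 difference -1.05, adjusted p 0.0104), but not without the first-table WT library (0.0859) or without the filter (0.0772). ANGPT2 is also in this list. EGFL7, a secreted endothelial factor, was lower (-0.44) and THBD, thrombomodulin, higher (0.77), with adjusted p of 0.0353 and 0.0309. Each of these 2 calls was lost on leaving out any of 5 of the 6 libraries, with adjusted p reaching 0.189 and 0.166, and without the filter at 0.140 and 0.133. THBD, with a WT mean of 0.792 FPKM, passed the limit of 1 FPKM only through the knockout libraries. Without the term for the table the counts of the list were 3 lower and 0 higher.

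**Figure D4:**
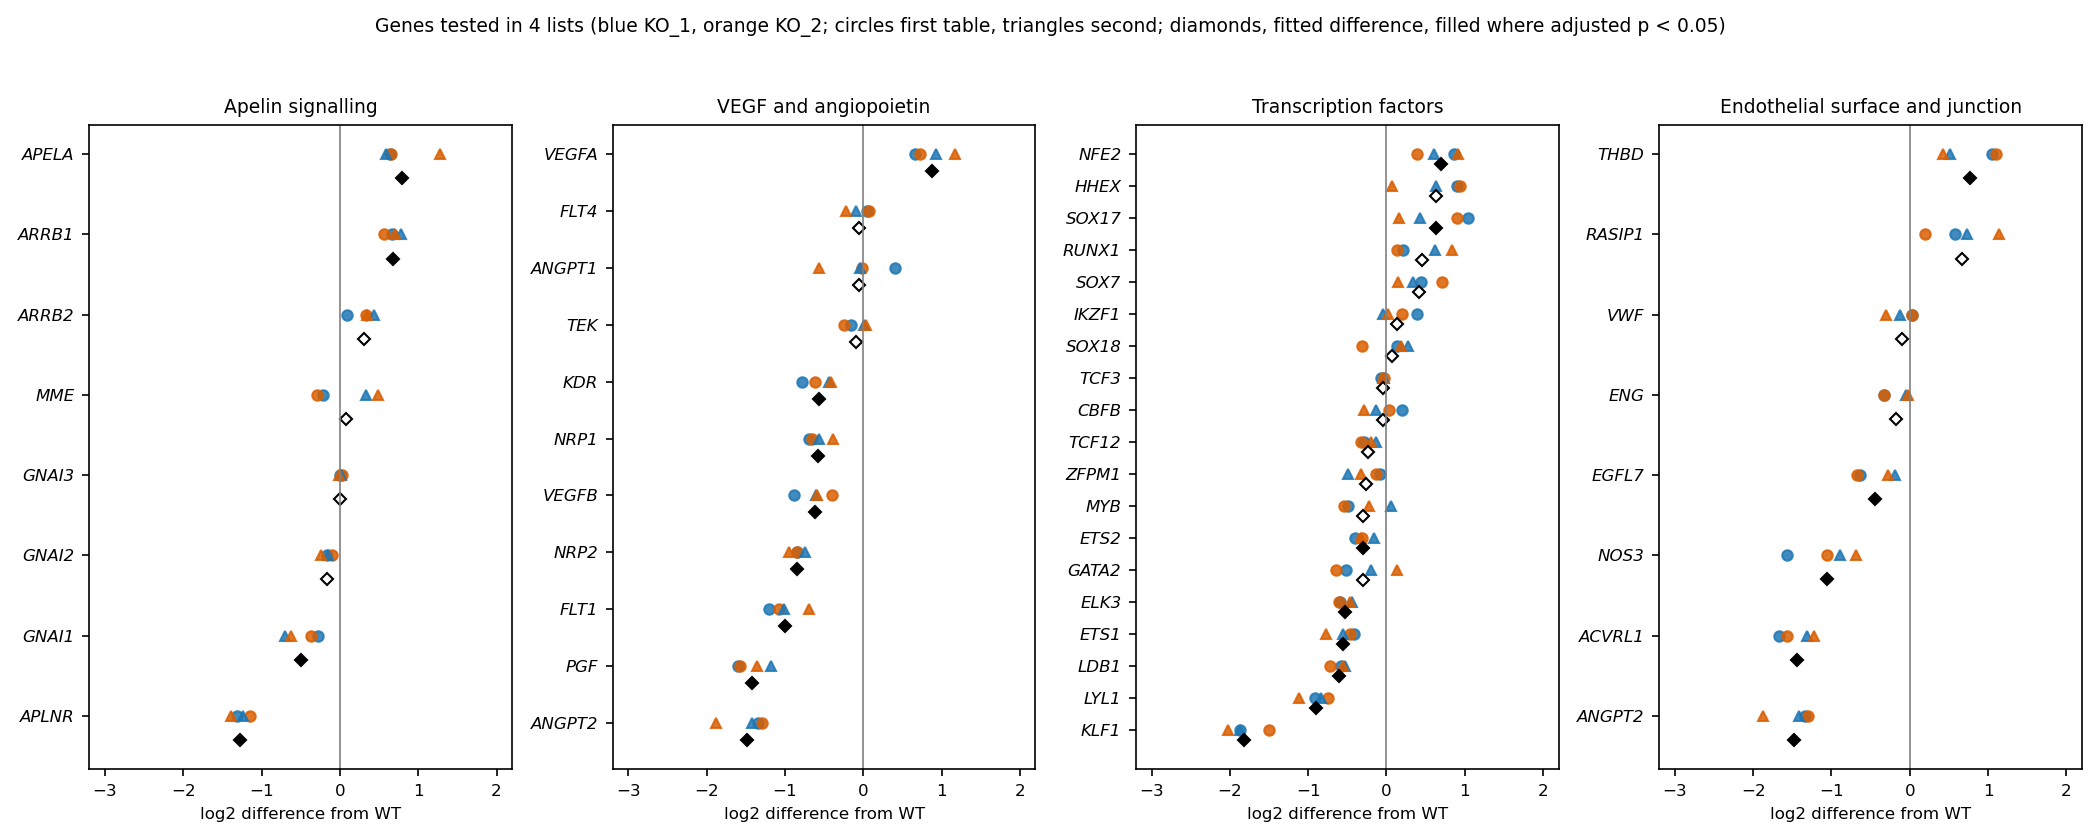
Log2 differences from WT for the genes tested in the lists of apelin signalling, VEGF and angiopoietin signalling, transcription factors and endothelial genes, with blue and orange points for each knockout library against WT of the same table and diamonds for the fitted difference, filled where the adjusted p was under 0.05. VEGFA lies to the right of 0 in all 4 libraries, and KDR, NRP1, VEGFB, NRP2, FLT1, PGF and ANGPT2 lie to the left in all 4.

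Genes with a pattern like that of APLNR were sought among 7049 other genes with a mean of at least 10 FPKM, by the Euclidean distance between the 4 within-table log2 differences. The closest were FZD7, a Wnt receptor, LIFR, the receptor of leukemia inhibitory factor, and CGNL1, a junction protein, at distances of 0.19, 0.21 and 0.23 and with differences of -1.33, -1.30 and -1.20. For FLT1 they were NT5C, NNAT and ADAMTS7 (distances 0.17, 0.18 and 0.24). For APELA, CAMTA2, COL11A1 and MICALL1 were closest, at larger distances of 0.29, 0.31 and 0.32. These are likenesses of 4 differences that share the WT libraries.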

How the data were processed

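RNA-seq libraries of H1 cells at day 2 were made from 2 ug of total RNA each, per the labels. The authors deposited FPKM values per gene symbol in 2 tables, with 1 library of every group in each. The second table names the unit. The first names none, and FPKM is inferred for it from its values. The submitters' processing notes list BWA, Bowtie, RSEM and hg19 without their roles, and annotation, strandedness and versions are not given in the sources used here. Library totals are not in the tables, so depth is known only relative to WT, and no counting interval is given.

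Heading lines and repeated symbols (94 in the first table, 340 in the second) were left out. The columns name a group but no replicate, and the tables were taken as blocks. Genes with a mean of at least 1 FPKM over the 6 libraries (13909) were tested on log2(FPKM + 1) with limma 3.58.1 in R 4.3.3 (group means plus table, mean-variance trend, 2 residual and 3.34 prior degrees of freedom). Changes of low genes appear smaller on this scale than in FPKM. Two-sided p-values were corrected over every tested gene (Benjamini-Hochberg, threshold 0.05). As a check of the blocks, the first-minus-second-table difference of each gene was compared between groups, and r across genes (not independent) was 0.616 to 0.676. The fit was also run on simulated data, and no result of that run is used here.

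Genes and lists were chosen with earlier results of these data known. Named genes are the selection, SNAI1, called genes of the lists, list genes of low level that reached 1 FPKM in any library, and the 3 nearest genes to APLNR and to the next 2 called members. Overlaps with other genes were read from GENCODE release 29. Alternatives were no table term, other pseudocounts (0.1 and 10) and limits (none, 0.1 and 5 FPKM), quantile normalization, median-ratio scaling, no trend, knockout groups pooled, and leaving out each library. Count-based tests were not run, since the values are FPKM.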

Additional observations from a re-analysis of the deposited data

How the results depend on the processing

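Without a replicate block (no term for the table), 1065 genes were called for both knockout groups against WT, 576 for SNAI1_KO_1 and 698 for SNAI1_KO_2, in place of 4348, 3327 and 3549, and 2 of the selected genes (APLNR and FLT1) in place of 4. Without the filter the counts were 2139, 1008 and 1216, and again 2. Leaving out each library gave 1728 to 2840, 962 to 2379 and 1135 to 2693 genes, and 2 to 4 of the selection, the lowest without the first-table WT library. The cause was not tested, and leaving out a library also leaves fewer samples in the fit. Between the knockout groups 0 genes were called under every alternative. TEK ranged from -0.20 to 0.025 on leaving out each library and turned positive without the first-table WT library. Of 94 alternatives for the 6 tested genes, 83 kept direction and side of the threshold, 10 (APELA and KDR) no longer passed and 1 reversed. Over 21 called list genes, 256 alternatives kept the call and 72 lost it, 14 of them without the table term. The 83 alternatives that kept direction and side include those in which GATA2 and TEK stayed uncalled, and GATA2 ranged from -0.58 to -0.031. APLNR lay between -1.34 and -1.20 throughout. Values below 1 FPKM are limited by an unknown depth.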

Other observations

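Apart from ETV2 and LMO2, 4 list genes reached 1 FPKM in a library but were too low to be tested. CD34, a surface marker of hemogenic endothelium, was at 1.152 and 1.111 FPKM in the WT libraries and between 0.0423 and 0.201 in the knockout libraries. TIE1, an endothelial receptor related to TEK, was at 1.008 and 0.731 FPKM in WT and between 0.475 and 1.327 in the knockout libraries, and the groups overlapped. SPI1, the myeloid factor PU.1, was at 0.422 and 0.332 FPKM in WT and between 0.405 and 1.510 in the knockout libraries, again with overlap. PAX6, a neuroectoderm factor, was at 1.285 and 2.38 FPKM in WT and between 0.0242 and 0.184 in the knockout libraries. FLI1, an ETS factor of endothelium, was at 0.977 and 0.752 FPKM in WT and between 0.162 and 0.373 in the knockout libraries. FLI1 stayed below 1 FPKM and was chosen after its values were seen. None of these 5 genes was tested.

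LCP1, a leukocyte actin-bundling protein and the only blood cell marker called higher, rose from 3.73 and 3.71 FPKM in WT to between 19.5 and 25.6 in the knockout libraries (log2 difference 2.27, adjusted p 0.000243 by limma, with 1 of 4 tested blood markers lower, KLF1). PTPRC was listed at 0 in the same libraries.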
